A study of Mus musculus with 6 samples.

Results

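The genes described here are a list of 32 T cell identity and cytotoxic effector genes, taken by gene symbol from a table of 34665 gene rows. They are called T cell genes below by this list, and which cells made each transcript was not tested. They were the 4 CD3 signalling chains, 3 coreceptors, 5 adhesion and costimulatory receptors, 4 proximal signalling proteins, 7 cytotoxic granule or death ligand genes, interferon gamma, 3 transcription factors, 3 cytokine receptors and 2 chemokine receptors. All 32 were found, and 30 passed the filter on low counts; Sh2d1a and Ifng did not. They were measured by bulk sequencing of total RNA from tumours of B16, a mouse melanoma cell line, of wild-type genotype per the labels. The tumours labelled RI (replicates 1, 2 and 4) received radiation plus an immune checkpoint inhibitor, and those labelled ICI (replicates 1, 2 and 3) received the inhibitor alone, so both groups carry the inhibitor and no untreated tumour was among them. The labels used here name neither the inhibitor's target nor the radiation dose, the time of harvest, the host strain or age, or whether the sampled tumour was itself irradiated. The series title places the work on SFRP2+ fibroblasts and the abscopal effect, which is the regression of a tumour outside the irradiated field.

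A T cell recognises antigen through a receptor whose variable chains carry no signalling tail of their own and depend on the CD3 proteins to pass the signal on. The kinase Lck, held at the coreceptors CD8 or CD4, phosphorylates the CD3 tails, the kinase Zap70 docks there, and the adaptor Lat spreads the signal. Activated CD8 T cells store perforin and granzymes in granules that are emptied onto a target cell, release interferon gamma, and are the cells that checkpoint inhibitors are meant to release from restraint in tumours such as B16, which hold few T cells.

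The library totals ranged from 22543721 to 45624013 counts, and the 32 genes together held 2615, 778 and 470 counts in RI replicates 1, 2 and 4, against 7176, 3800 and 1304 in ICI replicates 1, 2 and 3. As a percentage of each total these were 0.00796, 0.00171 and 0.00208 in RI, against 0.0223, 0.0100 and 0.00302 in ICI. The widest of their 95% Wilson intervals ran from 0.0218 to 0.0228, in ICI 1, and all such intervals cover counting error only. RI 1 stood apart in another way, with 29748 rows holding at least 1 count, against 22763 to 24891 in the other 5 libraries. The cell type label names melanoma cells, and the 6 melanoma markers (Pmel, Tyr, Mlana, Dct, Tyrp1 and Sox10) summed to between 9678 and 14166 CPM (the count scaled to a library size corrected by the trimmed mean of M-values) in RI and between 12918 and 14499 CPM in ICI. The labelled cells' markers were thus abundant in every library. In bulk samples such as these, fewer T cells and less RNA per T cell cannot be told apart.

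The T cell genes were lower in RI tumours on average, but the libraries of each group lay so far apart that no single gene passed the test. The summed level of the 32 genes was 92.7, 17.5 and 21.9 CPM in RI 1, 2 and 4 (44.1 ± 42.2, mean ± SD, n = 3), against 206, 95.6 and 27.3 CPM in ICI 1, 2 and 3 (110 ± 90.4, n = 3). In this sum RI 1 thus stood close to ICI 2, and ICI 3 close to RI 2 and RI 4. Lat, Tcf7, Il7r, Il2rg and Cxcr3 made up 13.0, 15.7 and 16.1 CPM of it in RI 2, RI 4 and ICI 3. The other 27 genes summed to 4.53 and 6.25 CPM in RI 2 and RI 4, against 11.2 CPM in ICI 3. The mean CPM was lower in RI for 30 of the 32 genes, the exceptions being Il7r and Cxcr3. In edgeR's quasi-likelihood test, with Benjamini-Hochberg adjustment over the 16924 genes tested, 0 of the 30 tested T cell genes were called in either direction at an adjusted p under 0.05, with adjusted p from 0.125 to 0.841. Only Il2rg had an unadjusted p under 0.05. DESeq2 also called 0 of the 30 (8 at an unadjusted p under 0.05), and so did limma-voom (1 at that level). Over all genes, 4.72% were called lower in RI and 4.46% higher, 9.18% in all, or 799 and 754 genes. Upper-quartile scaling shifted that split to 497 lower and 1046 higher. These totals also rested on single libraries. They were 1545 lower and 1564 higher without RI 1, 16 and 81 without RI 4, 291 and 234 without ICI 2, 0 and 2 without ICI 3, and 0 and 0 without either ICI 1 or RI 2, where 3701 and 4107 genes were at an unadjusted p under 0.05.

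The fold changes leaned the same way. The median log2 fold change (RI over ICI) of the 30 tested genes was -1.67, against 0.01 over all genes tested, and 28 of the 30 were below 0, against 49.0% of all genes. For 0 of the 32 did the 3 RI libraries lie wholly below or wholly above the 3 ICI libraries. Over all genes tested, 19.4% had every RI library below every ICI library and 17.8% had every one above.

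**Figure D1:**
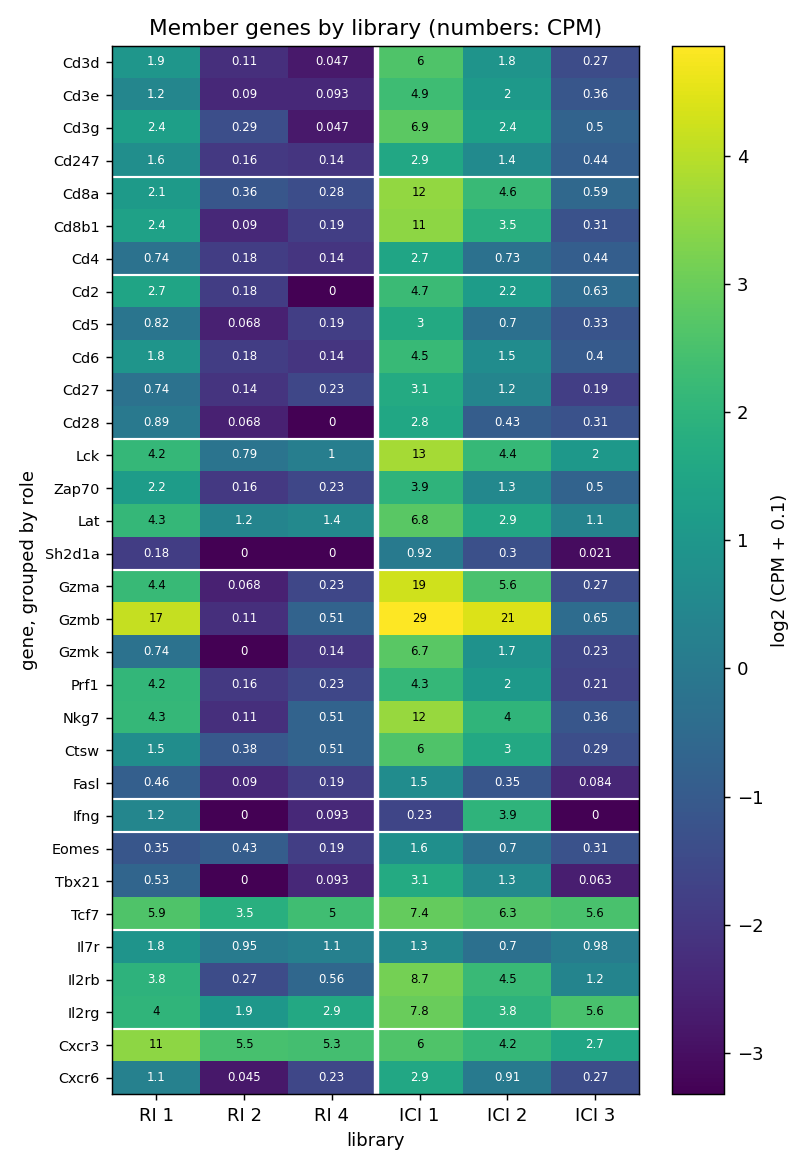
Level of each of the 32 T cell genes in each library, coloured by log2 (CPM + 0.1) with the CPM printed in the cell; RI libraries stand left of the white line and ICI libraries right of it, and thin lines part the functional groups. The columns of RI 2, RI 4 and ICI 3 are dark for most genes, RI 1 resembles ICI 2, and ICI 1 is brightest in 29 rows.

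The order of the libraries was nearly the same from gene to gene. ICI 1 was the highest of the 6 libraries for 29 of the 32 genes, all but Ifng, Il7r and Cxcr3. RI 1 was the highest RI library for 31, all but Eomes, and stood above ICI 3 for 31, all but Il2rg. Against ICI 2 it was evenly placed, higher for 16 of the 32. RI 2 and RI 4 both lay below the 4 other libraries for 21 genes. Within the ICI group, ICI 1 exceeded ICI 2 and ICI 2 exceeded ICI 3 for 29 genes, all but Ifng, Il7r and Il2rg. The distance between the highest and the lowest library was at least 10-fold for 26 genes. It was widest for the granzyme genes Gzma, at 284-fold, and Gzmb, at 256-fold, and narrowest for Tcf7, at 2.12-fold. The genes were measured in the same 6 libraries, so their shared order adds no replicates.

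Because so many of these genes shared one order of libraries, the 250 bases before the transcription start of 4 of them are shown, 3 of the T cell genes with wide ranges (Cd3d, Gzma and Cd8a) and Il2rg, whose range was narrow. The sequences are RefSeq's for GRCm38.p6, read 5′ to 3′ on the strand of the gene: chr9:44981536-44981785 (plus) for Cd3d, chr13:113100982-113101231 (minus) for Gzma, chr6:71373177-71373426 (plus) for Cd8a and chrX:101268256-101268505 (minus) for Il2rg. Capitals mark exact matches, on either strand, to core letters associated with 4 families of T cell transcription factors: TGTGGT (RUNX), AGGAAG (ETS), GGTGTG (T-box, the family of Tbx21 and Eomes) and CTTTGA (TCF/LEF, the family of Tcf7).
Cd3d: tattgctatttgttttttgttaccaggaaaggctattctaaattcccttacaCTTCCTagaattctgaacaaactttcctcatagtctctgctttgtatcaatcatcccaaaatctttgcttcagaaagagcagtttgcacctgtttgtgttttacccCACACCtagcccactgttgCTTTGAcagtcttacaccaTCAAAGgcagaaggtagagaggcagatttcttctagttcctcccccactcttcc
Gzma: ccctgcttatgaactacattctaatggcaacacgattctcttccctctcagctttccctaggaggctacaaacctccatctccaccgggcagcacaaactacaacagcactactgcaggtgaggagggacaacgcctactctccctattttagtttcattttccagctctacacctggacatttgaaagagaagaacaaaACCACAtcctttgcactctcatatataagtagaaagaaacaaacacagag
Cd8a: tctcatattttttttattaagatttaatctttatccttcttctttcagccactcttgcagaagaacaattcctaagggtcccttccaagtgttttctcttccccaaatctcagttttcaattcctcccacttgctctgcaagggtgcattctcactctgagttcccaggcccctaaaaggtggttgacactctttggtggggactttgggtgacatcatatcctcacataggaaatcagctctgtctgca
Il2rg: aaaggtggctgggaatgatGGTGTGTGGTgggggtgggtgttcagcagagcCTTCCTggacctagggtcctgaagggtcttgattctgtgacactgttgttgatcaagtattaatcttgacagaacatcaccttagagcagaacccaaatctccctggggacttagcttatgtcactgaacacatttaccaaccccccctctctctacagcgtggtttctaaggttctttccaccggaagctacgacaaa
The Cd3d window held 1 ETS, 1 T-box and 2 TCF/LEF matches, the Gzma window 1 RUNX match, the Cd8a window none of the 4, and the Il2rg window 1 ETS match and a RUNX and a T-box match that overlap each other. A window was in the table for 24 of the 32 genes, with 28 windows in all since some genes have several starts. RUNX letters were found in 32.1% of these 28 windows, against 14.1% of all 32851 windows of that length, ETS letters in 57.1% against 29.5%, T-box letters in 25% against 16.3%, and TCF/LEF letters in 14.3% against 13.8%. As a check, a short stretch after each start was sought in the gene's annotated transcripts (GENCODE M21). It was not found for Gzmb, Gzmk, Il7r, Prf1, a window of Tcf7 and a window of Zap70. Those windows are included in the shares. The shares describe the letters only and were not tested.

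The 3 CD3 genes Cd3d, Cd3e and Cd3g lie side by side on chromosome 9 (GENCODE M21, GRCm38; Cd3g 44969572 to 44980431 on the minus strand, Cd3d 44981786 to 44987339 on the plus strand, Cd3e 44998740 to 45009627 on the minus strand), and Cd247, which encodes the zeta chain, lies on chromosome 1. The 4 chains summed to 7.06, 0.654 and 0.327 CPM in RI 1, 2 and 4, against 20.6, 7.57 and 1.57 CPM in ICI 1, 2 and 3. Only 29 and 7 counts stood behind the sums of RI 2 and RI 4, against 199 in RI 1 and 717, 301 and 75 in the ICI libraries. Cd3e measured 1.24, 0.0901 and 0.0933 CPM in RI, against 4.89, 2.01 and 0.355 CPM in ICI. RI 2 and RI 4 lay below all ICI libraries, and RI 1 lay between ICI 2 and ICI 3. Its log2 fold change was -2.35 (SE 1.27, edgeR adjusted p = 0.251). Cd3d, the gene of the first promoter above, measured 1.88, 0.113 and 0.0467 CPM in RI, against 5.98, 1.76 and 0.272 CPM in ICI, with a log2 fold change of -1.97 (SE 1.49, adjusted p = 0.401). Here RI 1 stood just above ICI 2. The log2 fold changes of Cd3g and Cd247 were -1.83 and -1.34. For Cd247, 56.4% of the exon bases are shared with Pou2f1 on the opposite strand, which held 3109 counts over the 6 libraries. Cd247 itself had 44, 7 and 3 counts in RI, against 100, 56 and 21 in ICI. Since the strand setting of the counting is not given, part of the Cd247 counts could belong to Pou2f1. Cd247 was also the only T cell gene called when any library was left out: without RI 1 its log2 fold change was -3.34 (SE 0.89, edgeR adjusted p = 0.0442). That fit called 1 of 31 T cell genes lower, beside 1545 of all 17551 genes tested, so the call was not read as a result about these genes.

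The summed constant regions of the antigen receptor, which are not among the 32 genes, were also highest in ICI 1 and lowest in RI 2 and RI 4. Trac (alpha chain), Trbc1 and Trbc2 (beta chain) and Trdc (delta chain) summed to 10.04, 1.08 and 0.887 CPM in RI, against 25.8, 10.9 and 1.94 CPM in ICI. Of these, 3 were tested and 0 were called in edgeR, DESeq2 or limma-voom, with 0 at an unadjusted p under 0.05 in edgeR. Trac measured 2.80, 0.270 and 0.280 CPM in RI, against 8.25, 3.35 and 0.753 CPM in ICI, with a log2 fold change of -1.88 (SE 1.19, adjusted p = 0.320). Trdc alone was highest in ICI 3, with 1, 0 and 0 counts in RI, against 1, 2 and 6 in ICI. Trbc1 and Trbc2 are 95.6% identical over 521 bases, so reads may have been split between them.

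Cd8a and Cd8b1, which encode the chains of the CD8 coreceptor of killer T cells, are neighbours on chromosome 6 (71373427 to 71379173 and 71322788 to 71337494, both on the plus strand). Cd8a measured 2.09, 0.361 and 0.280 CPM in RI 1, 2 and 4, against 11.6, 4.58 and 0.585 CPM in ICI 1, 2 and 3. RI 1 exceeded ICI 3 and the groups overlapped through that pair alone. The log2 fold change was -2.61 (SE 1.23, edgeR adjusted p = 0.203). Cd8b1 measured 2.45, 0.0901 and 0.187 CPM in RI, against 10.98, 3.498 and 0.314 CPM in ICI, with the same order of RI 1 between ICI 2 and ICI 3 (log2 fold change -2.44, SE 1.60, adjusted p = 0.341). Cd4, the coreceptor of helper T cells, which macrophages also carry in some settings, measured 0.745, 0.180 and 0.140 CPM in RI, against 2.73, 0.730 and 0.439 CPM in ICI. RI 1 and ICI 2 were level within counting error, with 21 and 29 counts. Its log2 fold change was -1.86 (SE 0.87, adjusted p = 0.187). The ratio of Cd8a to Cd4 counts was 2.81, 2.00 and 2.00 in RI, against 4.24, 6.28 and 1.33 in ICI. On the log2 scale the means were 1.16 and 1.72, a difference of -0.55 (2-sided exact permutation test p = 0.4, 0.5 after Benjamini-Hochberg adjustment over 5 such ratios). With 3 libraries against 3 the smallest p this test allows is 0.1.

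The adhesion and costimulatory receptors gave the same picture at lower counts. Cd2, an adhesion receptor of T and NK cells, measured 2.66 CPM in RI 1, 0.180 in RI 2 and had no count in RI 4, against 4.66, 2.19 and 0.627 CPM in ICI. A count of 0 in RI 4 allows up to 0.140 CPM (3 counts). Cd28, the main costimulatory receptor of T cells, measured 0.887 and 0.0676 CPM in RI 1 and RI 2 and also had no count in RI 4, against 2.82, 0.428 and 0.314 CPM in ICI. For both, RI 1 was second only to ICI 1, and RI 2 and RI 4 lay below every ICI library. Cd5 and Cd6, related scavenger-type receptors that damp T cell receptor signalling, and Cd27, a costimulatory receptor of the TNF receptor family, ranged from 0.0676 to 1.84 CPM in RI and from 0.188 to 4.46 CPM in ICI. The log2 fold changes of the 5 genes lay between -2.03 (Cd27, SE 1.02, edgeR adjusted p = 0.215) and -1.39 (Cd2, SE 1.43, adjusted p = 0.538).

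Among the proximal signalling proteins, Lck measured 4.22, 0.789 and 1.03 CPM in RI, against 13.3, 4.40 and 1.97 CPM in ICI. RI 1 and ICI 2 were close and RI 2 and RI 4 lay lowest (log2 fold change -1.70, SE 0.91, edgeR adjusted p = 0.246). Zap70 measured 2.20, 0.158 and 0.233 CPM in RI, against 3.91, 1.31 and 0.502 CPM in ICI, with a log2 fold change of -1.14 (SE 1.14, adjusted p = 0.522). Lat differed less between libraries, at 4.26, 1.19 and 1.35 CPM in RI, against 6.76, 2.89 and 1.15 CPM in ICI. ICI 3 was its lowest library. Its log2 fold change was -0.66 (SE 0.73, adjusted p = 0.558) and turned to 0.15 without ICI 1. Sh2d1a, the adaptor SAP of the SLAM receptors, had 5, 0 and 0 counts in RI, against 32, 12 and 1 in ICI, and was not tested. Its exons share 26.6% of their bases with Tenm1 on the opposite strand. Of 24 other genes of the T cell receptor signalling pathway, 22 were tested and 0 were called in edgeR, with 18 log2 fold changes below 0, a median of -0.43, and 2 lower and 1 higher at an unadjusted p under 0.05. Limma-voom called 0 of them and DESeq2 1, Csk, as lower. The 2 of highest mean CPM are made by many cell types: Csk, the kinase that inhibits Lck, averaged 121 ± 2.14 CPM in RI and 160 ± 12.9 CPM in ICI (SD, n = 3 each; adjusted p = 0.0683), and Nfatc2, a calcium-driven transcription factor, averaged 132 ± 7.31 and 107 ± 8.39 CPM (adjusted p = 0.146).

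Gzma and Gzmb had the widest ranges of the 32 genes. Gzmb, the granzyme that cleaves caspases in target cells, measured 17.5, 0.113 and 0.513 CPM in RI 1, 2 and 4, against 28.9, 21.3 and 0.648 CPM in ICI 1, 2 and 3. These values rest on 492, 5 and 11 counts in RI, against 1005, 847 and 31 in ICI. The libraries fell into a high set (RI 1, ICI 1 and ICI 2) and a low set (RI 2, RI 4 and ICI 3) that cut across the treatments. The log2 fold change was -1.49 with an SE of 1.98 (edgeR adjusted p = 0.641). Gzma, a granzyme of another cleavage specificity, measured 4.43, 0.0676 and 0.233 CPM in RI, against 19.2, 5.59 and 0.272 CPM in ICI (log2 fold change -2.41, SE 1.90, adjusted p = 0.428). The same 3 libraries were high. Gzmk, a granzyme of memory-like CD8 T cells that lies near Gzma on chromosome 13, measured 0.745 and 0.140 CPM in RI 1 and RI 4 and had no count in RI 2, which allows up to 0.0676 CPM, against 6.70, 1.69 and 0.230 CPM in ICI. Its fitted log2 fold change of -3.31 was the lowest of the 30 (SE 1.59, adjusted p = 0.211), and since it includes a library at 0 it depends on the fit's prior count.

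Prf1, which encodes perforin, the pore that lets granzymes into the target cell, was nearly level between RI 1 and ICI 1. It measured 4.19, 0.158 and 0.233 CPM in RI, against 4.28, 2.01 and 0.209 CPM in ICI, with a log2 fold change of -0.50 (SE 1.45, edgeR adjusted p = 0.841). Its sign was not stable, at 0.45 without ICI 1 and 0.07 without RI 2. Nkg7, a granule membrane protein of killer cells, measured 4.26, 0.113 and 0.513 CPM in RI, against 11.9, 4.03 and 0.355 CPM in ICI (log2 fold change -1.74, SE 1.58, adjusted p = 0.485). RI 1 and ICI 2 were again alike, and RI 4 stood above ICI 3. Ctsw, a cathepsin of cytotoxic lymphocytes, measured 1.53, 0.383 and 0.513 CPM in RI, against 5.98, 2.99 and 0.293 CPM in ICI (log2 fold change -1.93, SE 1.03, adjusted p = 0.242). Fasl, the ligand that triggers death through the receptor Fas, measured 0.461, 0.0901 and 0.187 CPM in RI, against 1.47, 0.352 and 0.0836 CPM in ICI. Its log2 fold change was -1.37 (SE 1.03, adjusted p = 0.387) and 0.15 without ICI 1. For both genes ICI 3 was the lowest library of the 6.

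Ifng, the cytokine interferon gamma, was the only gene of the 32 that was highest in ICI 2. It had 35, 0 and 2 counts in RI 1, 2 and 4, against 8, 155 and 0 in ICI 1, 2 and 3, or 1.24, 0 and 0.0933 CPM in RI, against 0.230, 3.90 and 0 CPM in ICI. ICI 1, the library richest in T cell transcripts, thus held few Ifng counts. Ifng did not pass the filter on low counts, and without the filter its log2 fold change was -1.72 (SE 2.39, edgeR adjusted p = 0.686). Gm49751 on the same strand shares 26.0% of its exon bases and held 12 counts over the 6 libraries. Of 8 other effector cytokines and chemokines, 4 were tested and 0 were called in edgeR (0 at an unadjusted p under 0.05), DESeq2 or limma-voom. Ccl5, a T cell attractant with the highest mean CPM of them, measured 24.3, 25.4 and 28.1 CPM in RI, against 65.0, 32.8 and 8.99 CPM in ICI (log2 fold change -0.46, SE 0.65, adjusted p = 0.659). The RI libraries were close together for Ccl5 and the ICI libraries spread to both sides of them. Ccl4, a chemokine of activated T cells and macrophages, averaged 1.56 ± 1.55 CPM in RI and 2.45 ± 1.44 CPM in ICI (adjusted p = 0.600). Of the other granzymes, 2 of 6 were tested and 0 called in any of the 3 tools (0 at an unadjusted p under 0.05 in edgeR), Gzmm at 2.09 ± 1.59 CPM in RI and 1.70 ± 0.681 CPM in ICI (adjusted p = 0.740) and Gzmc at 0.361 ± 0.549 and 0.275 ± 0.128 CPM (adjusted p = 0.829), with SD over n = 3 each.

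**Figure D2:**
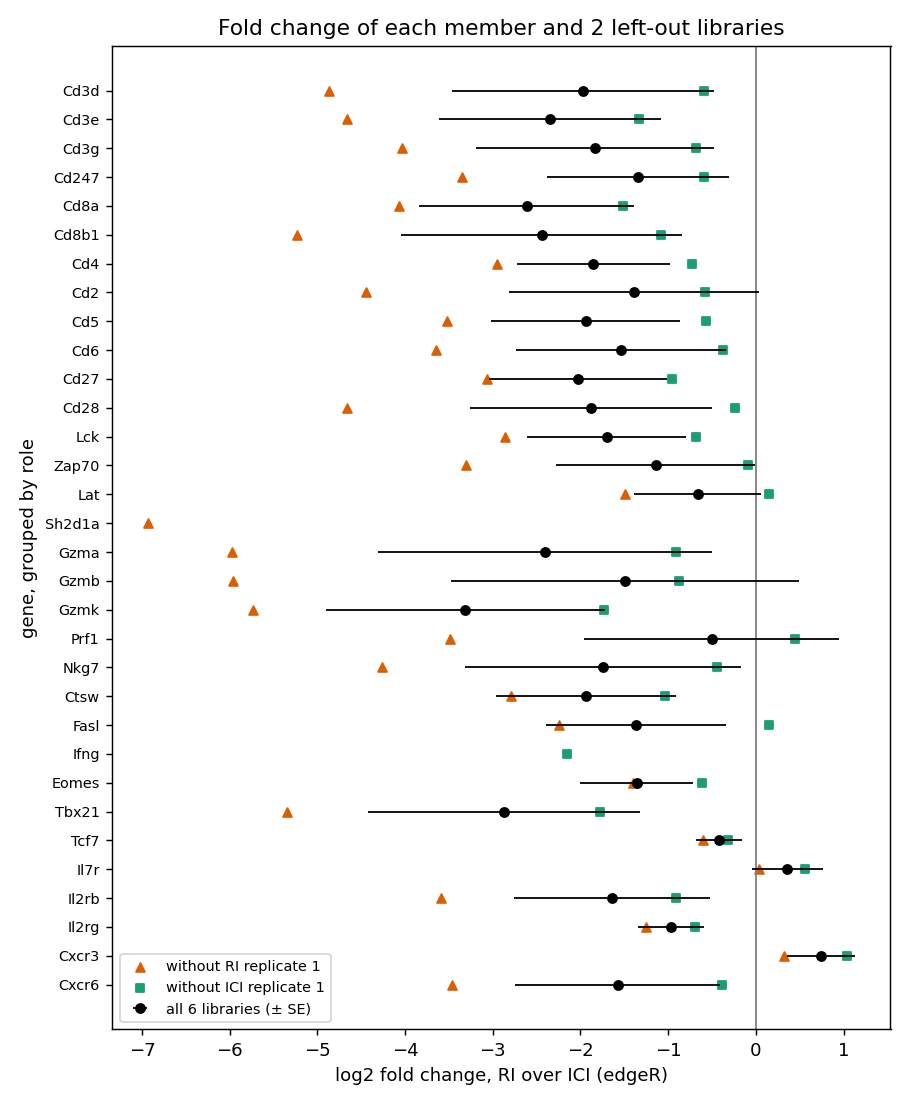
Log2 fold change (RI over ICI, edgeR) of each T cell gene with all 6 libraries (black, ± SE), without RI 1 (orange triangles) and without ICI 1 (green squares). Sh2d1a and Ifng have no black point because they were not tested. The points without RI 1 lie left of the black ones, with a median of -3.52 against -1.67, and those without ICI 1 lie right of them, with a median of -0.62.

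The transcription factors did not share one pattern. Tbx21, which encodes T-bet and drives the type 1 effector programme, measured 0.532 and 0.0933 CPM in RI 1 and RI 4 and had no count in RI 2, against 3.08, 1.33 and 0.0627 CPM in ICI. RI 1 lay between ICI 2 and ICI 3 (log2 fold change -2.87, SE 1.55, edgeR adjusted p = 0.252). Eomes, its relative in killer and memory T cells, measured 0.355, 0.428 and 0.187 CPM in RI, against 1.58, 0.705 and 0.314 CPM in ICI, the only gene of the 32 for which RI 1 was not the highest RI library. RI 1 and RI 2 lay above ICI 3 (log2 fold change -1.36, SE 0.64, adjusted p = 0.188). Its values in RI rest on 10, 19 and 4 counts. Tcf7, which encodes TCF-1 of naive and stem-like T cells, measured 5.92, 3.49 and 5.04 CPM in RI, against 7.42, 6.27 and 5.62 CPM in ICI. RI 1 and ICI 3 overlapped and the 6 libraries lay within 2.12-fold (log2 fold change -0.42, SE 0.27, adjusted p = 0.308). Of 12 other T lineage transcription factors, 11 were tested and 0 were called in edgeR, with 10 below 0, a median of -0.64 and 1 lower at an unadjusted p under 0.05. Limma-voom called 0 and DESeq2 1 (Id2, lower). Ets1 and Zeb2, with the highest mean CPM of them, averaged 328 ± 50.1 and 80.5 ± 13.9 CPM in RI and 415 ± 36.9 and 93.6 ± 8.76 CPM in ICI (SD, n = 3 each; adjusted p = 0.181 for Ets1 and 0.371 for Zeb2).

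Tcf7 was 1 of 5 genes whose highest library was less than 6 times its lowest, with Lat, Il7r, Il2rg and Cxcr3; this split was chosen after the values were seen. Il2rg encodes the common gamma chain shared by the receptors of several interleukins. It measured 3.97, 1.89 and 2.94 CPM in RI, against 7.85, 3.77 and 5.58 CPM in ICI. RI 1 exceeded ICI 2 by a narrow margin and the groups overlapped through that pair alone. Its log2 fold change was -0.97 (SE 0.38, edgeR adjusted p = 0.125), and it alone among the 32 had ICI 3 above RI 1. Gm20489, which shares 30.5% of its exon bases on the same strand, held 1 count over the 6 libraries. Its promoter letters are shown above. Il7r, the receptor of the T cell survival cytokine IL-7, measured 1.77, 0.947 and 1.07 CPM in RI, against 1.27, 0.705 and 0.983 CPM in ICI, with wide overlap (log2 fold change 0.36, SE 0.40, adjusted p = 0.565). Il2rb, the beta chain of the IL-2 and IL-15 receptors, behaved like the CD3 genes instead, at 3.80, 0.270 and 0.560 CPM in RI, against 8.68, 4.53 and 1.19 CPM in ICI (log2 fold change -1.64, SE 1.11, adjusted p = 0.351).

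Cxcr3, the receptor that guides effector T cells to interferon-induced chemokines, differed from most of the others. It measured 10.9, 5.48 and 5.27 CPM in RI 1, 2 and 4, against 5.95, 4.23 and 2.74 CPM in ICI 1, 2 and 3, on 113 to 306 counts per library. ICI 1 lay above RI 2 and RI 4, so the groups overlapped (log2 fold change 0.74, SE 0.39, edgeR adjusted p = 0.225). Cxcr6, a chemokine receptor of tissue-resident T cells, followed the CD3 order, at 1.10, 0.0451 and 0.233 CPM in RI, against 2.90, 0.906 and 0.272 CPM in ICI (log2 fold change -1.58, SE 1.17, adjusted p = 0.385). A list of 10 partners of the receptors and ligands among the 32 genes held Cxcl9, Cxcl10 and Cxcl16, which bind Cxcr3 or Cxcr6, the cytokines Il7 and Il15, the membrane ligands Cd80, Cd86, Cd70 and Cd48, and Fas, the receptor of Fasl. Of these, 8 were tested and 0 were called in edgeR or limma-voom. At an unadjusted p under 0.05 in edgeR 2 were lower and 1, Fas, was higher. Cxcl9 and Cxcl10, interferon-induced ligands of Cxcr3, were the 2 that DESeq2 called, both lower. Cxcl9 measured 17.2, 7.46 and 3.92 CPM in RI, against 39.4, 35.1 and 16.4 CPM in ICI (log2 fold change -1.66, SE 0.59, adjusted p = 0.117; 0.0323 without RI 1). Cxcl10 measured 142, 76.4 and 157 CPM in RI, against 253, 232 and 155 CPM in ICI (log2 fold change -0.77, SE 0.29, adjusted p = 0.123). In each the overlap was a single RI library a little above ICI 3.

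**Figure D3:**
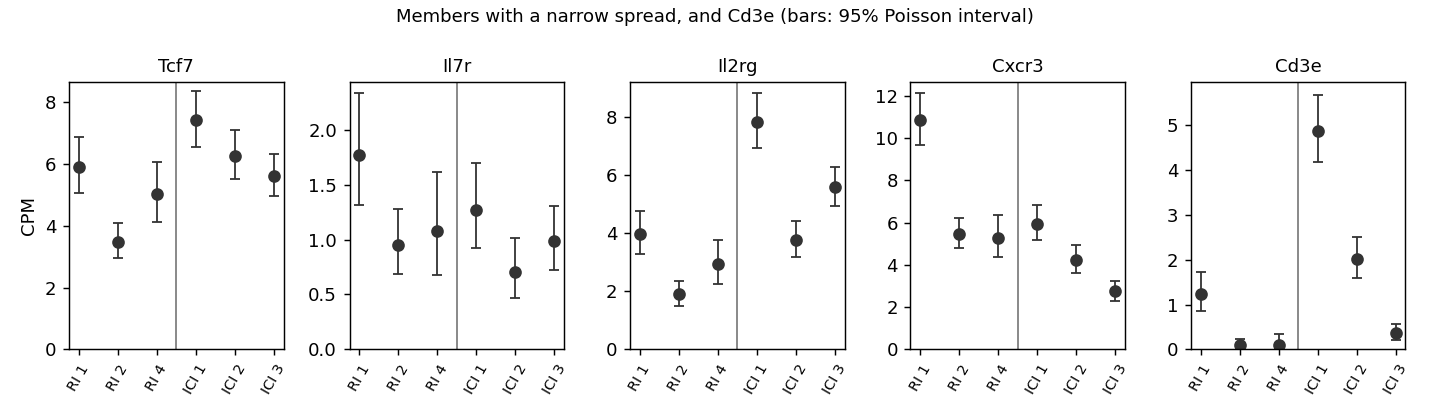
CPM per library of Tcf7, Il7r, Il2rg and Cxcr3, with Cd3e for contrast; RI libraries are left of the line and ICI libraries right of it, and bars are 95% Poisson intervals of the count, which cover counting error only. In RI 2 and RI 4 the first 4 genes stay between 0.947 and 5.48 CPM, where Cd3e is at 0.0901 and 0.0933 CPM.

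Per kilobase of exon, the leading genes changed with the library. In RI 1 the highest of the 32 were Gzmb at 12.2, Cxcr3 at 6.27 and Nkg7 at 4.66 CPM per kb, and in ICI 1 they were Gzmb at 20.1, Gzma at 19.1 and Nkg7 at 13.1 CPM per kb. In RI 2 they were Cxcr3 at 3.16, Tcf7 at 1.33 and Il2rg at 0.793 CPM per kb, and in RI 4 Cxcr3 at 3.05, Tcf7 at 1.92 and Il2rg at 1.23 CPM per kb. RI 2 and RI 4, poor in CD3 transcripts, were thus led by genes of narrow range. That set was defined from its levels in these same libraries, so its lead there was largely given beforehand. ICI 1 was led by granule genes, as was ICI 2, with Gzmb at 14.8, Gzma at 5.55 and Nkg7 at 4.40 CPM per kb. In RI 1 the narrow-range gene Cxcr3 stood between Gzmb and Nkg7. In ICI 3 the leading genes were Il2rg at 2.34, Tcf7 at 2.14 and Cxcr3 at 1.58 CPM per kb, the same 3 as in RI 2 and RI 4.

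The level of an effector gene relative to CD3 can be read within a library, where scaling cancels. Per 100 counts of the 4 CD3 chains, Prf1 had 59.3, 24.1 and 71.4 counts in RI 1, 2 and 4, against 20.8, 26.6 and 13.3 in ICI 1, 2 and 3. In RI 1 the 95% exact binomial interval of 46.8 to 74.8 lay above those of all ICI libraries, whereas RI 2 (8.93 to 56.3) and RI 4 (17.9 to 261) could not be parted from ICI 2 (20.5 to 34.1). Gzmb had 247, 17.2 and 157 counts per 100 in RI, against 140, 281 and 41.3 in ICI, high and low in both groups. Ifng had 17.6, 0 and 28.6 in RI, against 1.12, 51.5 and 0 in ICI, and its interval of 0.480 to 2.21 in ICI 1 lay apart from that of 42.1 to 62.7 in ICI 2. Gzmk had 10.6, 0 and 42.9 in RI, against 32.5, 22.3 and 14.7 in ICI. The Gzmk interval of RI 1 (6.39 to 16.6) lay below those of ICI 1 (27.9 to 37.7) and ICI 2 (16.8 to 29.1). Trac, by contrast, had 39.7, 41.4 and 85.7 in RI, against 40.0, 44.2 and 48.0 in ICI, with intervals that overlapped throughout. Trbc2 was less even, at 70.4, 41.4 and 100 in RI, against 48.5, 62.5 and 38.7 in ICI. Its interval in RI 1 (56.3 to 87.8) lay above that of ICI 1 (42.6 to 55.2) and overlapped those of ICI 2 and ICI 3. Genes of narrow range were set apart by their levels in these same libraries. Their high ratios to CD3 where CD3 was low were thus largely given beforehand. Cxcr3 had 154, 838 and 1614 counts per 100 in RI, against 28.9, 55.8 and 175 in ICI. Tcf7 had 83.9, 534 and 1543 in RI, against 36.0, 82.7 and 359 in ICI. Whether these transcripts came from T cells was not tested. The intervals above compare libraries, not treatments, and genes such as Ifng and Gzmk were picked for this display after their values were seen.

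**Figure D4:**
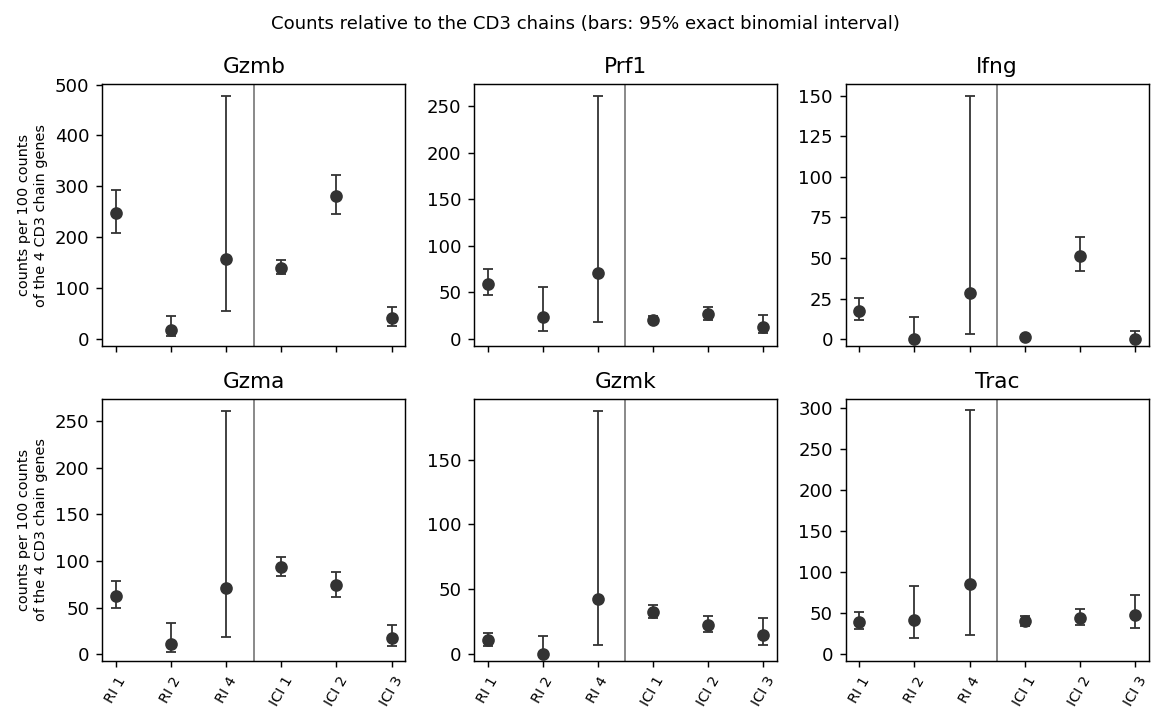
Counts of 6 genes per 100 counts of the 4 CD3 chain genes in each library, RI left of the line and ICI right, with 95% exact binomial intervals (counting error only). Trac lies at 39.7 to 48.0 in every library but RI 4, where only 7 CD3 counts were found, while Gzmb and Ifng differ widely between libraries of the same treatment.

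Ratios to Cd3e alone were compared between the treatments by 2-sided exact permutation tests, adjusted over 5 ratios. Prf1 counts per Cd3e count were 3.37, 1.75 and 2.5 in RI 1, 2 and 4, against 0.876, 1.00 and 0.588 in ICI 1, 2 and 3. Every RI library lay above every ICI library, with log2 means of 1.29 ± 0.47 and -0.32 ± 0.40 (SD, n = 3 each), a difference of 1.61 (exact permutation p = 0.1, the smallest possible, adjusted 0.333). The RI values of replicates 2 and 4 rest on 4 and 2 Cd3e counts. Per 100 counts of all 4 CD3 chains, Prf1 was lower in RI 2 (24.1) than in ICI 2 (26.6), so there the groups overlapped. For Gzmb per Cd3e the log2 means were 2.20 ± 1.76 in RI and 2.28 ± 1.29 in ICI (difference -0.08, exact p = 0.9, adjusted 0.9), and without RI 2 the difference was 0.86. For Tcf7 per Cd3e they were 4.43 ± 1.90 and 2.07 ± 1.73 (difference 2.35, exact p = 0.2, adjusted 0.333). Ifng per Cd3e had no log2 value in RI 2 and ICI 3 and was not tested.

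Markers of other cells were read in the same libraries, because NK cells share granule genes and a trace of lymph node would bring T cells along. The 8 NK markers summed to 3.90, 0.406 and 0.747 CPM in RI, against 9.75, 3.22 and 1.36 CPM in ICI, again highest in ICI 1 and lowest in RI 2 and RI 4. Of these markers 3 were tested and 0 called in edgeR (0 at an unadjusted p under 0.05), DESeq2 or limma-voom. Klrk1 and Klrc1 are receptors that CD8 T cells also carry. Klrk1 measured 1.35, 0.0676 and 0.373 CPM in RI, against 4.11, 1.33 and 0.251 CPM in ICI, and Klrc1 0.887, 0.0676 and 0.140 CPM in RI, against 2.44, 0.830 and 0.167 CPM in ICI. Ncr1, the defining NK receptor, had no count in any RI library or in ICI 1 and ICI 2, and 2 counts in ICI 3. The 8 B and plasma cell markers summed to 4.61, 2.86 and 4.48 CPM in RI, against 3.31, 3.57 and 2.66 CPM in ICI, with 5 tested and 0 called in the 3 tools (0 at an unadjusted p under 0.05 in edgeR). Cd79a, of the B cell receptor, led at 2.32 ± 0.805 CPM in RI and 1.57 ± 0.343 CPM in ICI, and Jchain, of secreted antibody, averaged 0.491 ± 0.434 and 0.465 ± 0.205 CPM (SD, n = 3 each). Lymph node stroma markers, 6 of which were in the table, summed to 11.3, 2.52 and 3.31 CPM in RI, against 5.15, 0.528 and 0.105 CPM in ICI. Of 2 tested, 1 was called higher: Cxcl13, a B cell attractant, measured 6.67, 1.17 and 3.13 CPM in RI and had no count in the ICI libraries (edgeR adjusted p = 0.0267). It thus passed the filter on low counts through the RI libraries alone, so its entry to the test depended on the group where it was high. Without a library its adjusted p ran from 0.0142 (RI 1) and 0.0466 (ICI 2) to 0.0571 (RI 2), 0.0723 (RI 4), 0.10045 (ICI 3) and 0.137 (ICI 1). Ccl21a, the T zone chemokine, measured 3.90 and 1.17 CPM in RI 1 and RI 2 and had no count in RI 4, against 5.09 and 0.503 CPM in ICI 1 and ICI 2 and no count in ICI 3. Within each group Ccl21a was thus highest in RI 1 and ICI 1, the richest RI and ICI libraries in T cell transcripts. It was the only 1 of the 6 stroma markers for which ICI 1 was the highest of all libraries. RI 1 was the highest RI library, or tied, for all 6. Whether lymph node tissue entered these libraries and added to the T cell genes was not tested.

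The leukocyte gene Ptprc (CD45) measured 8.02, 2.14 and 2.19 CPM in RI, against 26.6, 8.76 and 5.71 CPM in ICI (log2 fold change -1.73, SE 0.78, edgeR adjusted p = 0.188), again with RI 1 inside the ICI range. Cd3e per Ptprc count was 0.155, 0.0421 and 0.0426 in RI, against 0.184, 0.230 and 0.0623 in ICI, with log2 means of -3.94 ± 1.08 and -2.86 ± 1.008 (SD, n = 3 each; difference -1.08, exact permutation p = 0.2, adjusted 0.333). The 8 macrophage and monocyte markers did not fall in this order, at 272, 126 and 115 CPM in RI, against 167, 135 and 141 CPM in ICI, and 0 of 8 were called in edgeR (1 lower and 2 higher at an unadjusted p under 0.05) or limma-voom, while DESeq2 called Cd68 higher and Fcgr1 lower. The complement genes C1qa and C1qb averaged 46.4 ± 23.7 and 46.5 ± 33.3 CPM in RI and 39.6 ± 2.22 and 38.0 ± 2.84 CPM in ICI (SD, n = 3 each). RI 1 was highest for macrophages as it was among the RI libraries for T cells. The 7 dendritic cell markers summed to 6.56, 7.66 and 5.46 CPM in RI, against 8.28, 9.08 and 9.12 CPM in ICI, with 2 tested and 0 called in the 3 tools (0 at an unadjusted p under 0.05 in edgeR). Zbtb46, a transcription factor of conventional dendritic cells, averaged 5.83 ± 1.18 CPM in RI and 7.66 ± 0.845 CPM in ICI, and Clec9a, a receptor of the cross-presenting kind, 0.355 ± 0.241 and 0.509 ± 0.162 CPM.

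The neutrophil markers summed to 11.1, 3.27 and 2.10 CPM in RI, against 2.07, 1.53 and 2.80 CPM in ICI, with 3 tested and 0 called in edgeR (2 higher at an unadjusted p under 0.05) or limma-voom. The calgranulins S100a8 and S100a9, which DESeq2 called higher, averaged 2.71 ± 3.11 and 1.61 ± 1.22 CPM in RI and 0.554 ± 0.113 and 0.368 ± 0.197 CPM in ICI, with RI 1 the highest of the 6 for both. Endothelial markers summed to 148, 55.4 and 29.4 CPM in RI, against 136, 50.8 and 137 CPM in ICI, and fibroblast markers to 733, 457 and 351 CPM in RI, against 317, 106 and 708 CPM in ICI, with 0 of 5 and 0 of 6 called in the 3 tools (0 for endothelium and 1 higher for fibroblasts at an unadjusted p under 0.05 in edgeR). Pecam1 and Cdh5, junction proteins of endothelium, averaged 29.8 ± 27.7 and 26.4 ± 22.3 CPM in RI and 36.9 ± 15.8 and 36.1 ± 16.5 CPM in ICI, and the collagens Col1a1 and Col3a1 176 ± 63.8 and 170 ± 71.1 CPM in RI and 139 ± 122 and 118 ± 90.2 CPM in ICI (SD, n = 3 each). ICI 3, the ICI library poorest in T cell genes, was thus the highest of its group for the fibroblast sum. For the endothelial sum it was level with ICI 1, the library richest in T cell genes. Pecam1 and Cdh5 measured 47.2 and 45.7 CPM in ICI 1, against 44.8 and 45.5 CPM in ICI 3. Of the 6 melanoma markers only Mlana was called, at 965 ± 115 CPM in RI and 574 ± 78.5 CPM in ICI (edgeR adjusted p = 0.0376). Its adjusted p was 0.0192 without RI 1 and 0.0530 to 0.164 without any other library, and 0.0685 with a length and GC correction. The pigment genes Pmel and Dct averaged 3853 ± 1066 and 3532 ± 649 CPM in RI and 4217 ± 198 and 4485 ± 314 CPM in ICI (SD, n = 3 each; adjusted p = 0.695 for Pmel and 0.217 for Dct).

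**Figure D5:**
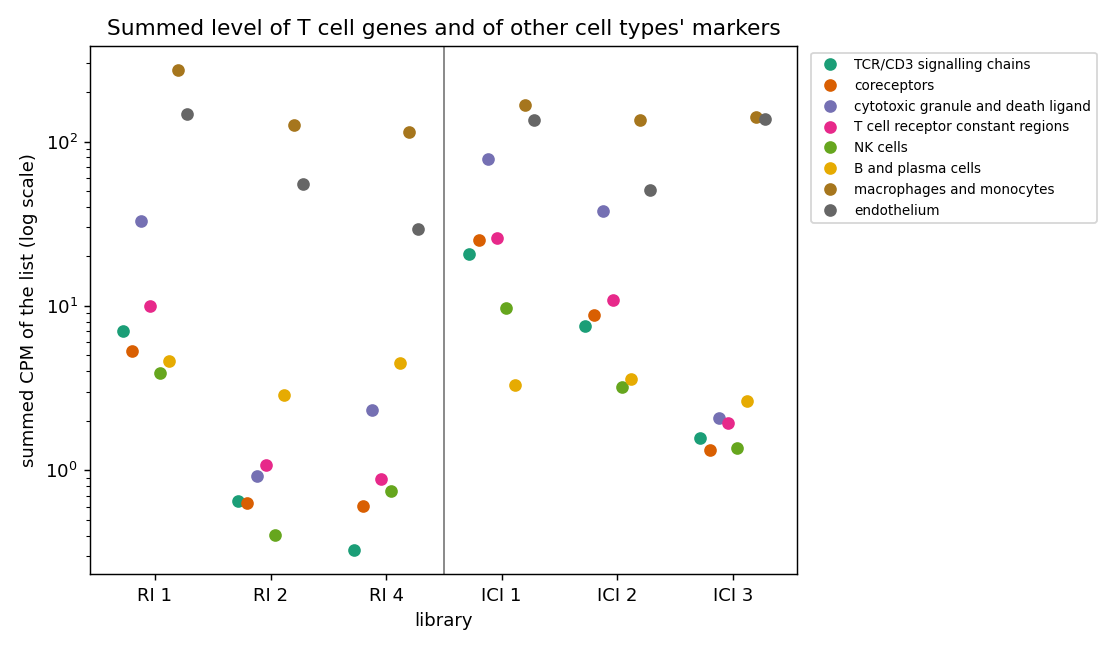
Summed CPM (log scale) of the CD3 chains, coreceptors, granule genes and receptor constant regions beside marker sums of NK cells, B and plasma cells, macrophages and endothelium in each library, RI left of the line and ICI right. The T cell sums and the NK sum are lowest in RI 2, RI 4 and ICI 3, whereas B cell markers stay between 2.66 and 4.61 CPM and macrophage markers between 115 and 272 CPM.

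Markers of T cell states were low or mixed. The 6 regulatory T cell markers summed to 14.6, 4.98 and 4.76 CPM in RI, against 8.91, 9.31 and 6.44 CPM in ICI, with 5 tested and 0 called in edgeR (1 lower at an unadjusted p under 0.05), DESeq2 or limma-voom. Ikzf2 (Helios), a transcription factor that other cells also express, averaged 3.58 ± 0.586 CPM in RI and 5.76 ± 0.849 CPM in ICI (SD, n = 3 each; adjusted p = 0.113). Ikzf4 (Eos), a related factor, stood out in 1 library, at 7.02, 0.451 and 0.187 CPM in RI, against 0.173, 0.705 and 0.146 CPM in ICI. Of 8 activation and costimulation genes, 6 were tested and 0 were called in edgeR (1 higher at an unadjusted p under 0.05) or limma-voom. Tnfrsf4 (OX40), a costimulatory receptor of activated T cells, was called higher by DESeq2. It measured 4.58, 2.48 and 2.43 CPM in RI, against 1.18, 1.53 and 1.13 CPM in ICI (log2 fold change 1.30, SE 0.36, edgeR adjusted p = 0.0589). Its RI libraries all lay above its ICI libraries, as for 17.8% of all genes tested. Tnfrsf9 (4-1BB), a related receptor, averaged 3.19 ± 1.93 CPM in RI and 5.02 ± 2.48 CPM in ICI (adjusted p = 0.425).

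Among 6 markers of naive and recirculating lymphocytes, 5 were tested. Of these, 4 had log2 fold changes below 0 and 1, Klf2, above 0 (median -0.14). DESeq2 called Ccr7 of this list lower. Klf2, a transcription factor of resting T cells that endothelium and macrophages also express, was called higher in RI. It measured 21.6, 18.0 and 18.2 CPM in RI, against 5.87, 5.64 and 4.39 CPM in ICI (log2 fold change 1.86, SE 0.19, edgeR adjusted p = 0.0189). For Klf2 every RI library lay above every ICI library, as for 17.8% of all genes tested. Its level in RI 2 and RI 4, which held few CD3 counts, was close to that in RI 1. DESeq2 and limma-voom also called it higher. In edgeR its adjusted p was 0.0111 without RI 1, 0.0352 without RI 4 and 0.0466 without ICI 2, and 0.0571 without RI 2, 0.0885 without ICI 3 and 0.137 without ICI 1. S1pr1, a receptor for egress from lymph nodes that endothelium carries too, measured 25.9, 8.001 and 3.92 CPM in RI, against 18.8, 6.74 and 16.1 CPM in ICI (adjusted p = 0.918), with ICI 3 close to ICI 1 as in the endothelial sum. Over all 18 other lists, leaving out RI 1 added 10 genes to those called, all lower in RI: Ccr7 of this list, Ctla4, Cxcl9, Cxcl16, Sit1, Prdm1, Cd244a, C1qb, Csf1r and Fcgr1. Calls also rose over the whole table in that fit, from 799 lower and 754 higher to 1545 lower and 1564 higher, of 17551 genes tested. The added genes were therefore not read as a result about these lists. Leaving out any other library added 0.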

How the data were processed

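The authors deposited a table of raw counts, whole numbers per gene for 6 tumour libraries. The submitters' processing notes name HISAT2 for alignment and the builds GRCm38 and mm10; for the counting tool, annotation release, strand and versions, nothing is given in the sources used here. A library counted as 1 replicate. Since the labels tie no library to an animal, p-values measure only the spread between libraries. No pair of libraries agreed within sampling noise (chi-square per degree of freedom at least 26.0).

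From these counts, edgeR 4.0.16 in R 4.3.3 was run on all genes: filterByExpr left 16924 of 34665 rows, libraries were scaled by the trimmed mean of M-values (TMM), and RI was compared with ICI by the quasi-likelihood test with robust estimation. Calls needed an adjusted p (Benjamini-Hochberg, over all genes tested) under 0.05, and adjusted p-values are edgeR's where no other tool is named. CPM is the count over the TMM-scaled library size. The code was tested on simulated data. DESeq2 1.42.0 and limma 3.58.1 (voom) were alternatives. Gene positions, exon lengths and overlaps come from GENCODE M21 (GRCm38), and promoters from RefSeq (GRCm38.p6). Exact permutation tests used log2 ratios of counts within a library.

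The 32 genes, 18 other gene lists and tests were chosen with earlier results of these data known. All 32 genes are named; of each other list, the called genes, or else the 2 of highest mean CPM in pathway lists and in every marker list, are named, and further genes were chosen after their values were seen. Some list entries (Tcrg-C1, Tcrg-C2, Tcrg-C4 and Fcer2a) were not analysed here.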

Additional observations from a re-analysis of the deposited data

How the results depend on the processing

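No T cell gene was called under median-of-ratios or upper-quartile scaling, either other filter on low counts, DESeq2, limma-voom, non-robust estimation, removal of mitochondrially encoded genes, a length and GC correction, or a threshold of adjusted p under 0.1, nor without ICI 1, ICI 2, ICI 3, RI 2 or RI 4; without RI 1, 1 was called lower (0 to 1 over the left-out libraries). Over all genes, the higher and lower calls (754 and 799) became 1746 and 1703 in DESeq2, 1046 and 497 with upper-quartile scaling, 1121 and 1507 without a filter, 263 and 356 with the length and GC correction and 1802 and 1833 at an adjusted p under 0.1. Leaving out 1 library gave 0 to 1564 higher and 0 to 1545 lower. With the replicate number as a replicate block (2 shared numbers) they were 400 and 245, and 7 T cell genes were called lower (Lck, Cd8a, Cd27, Cd3g, Cd3e, Gzmk and Ctsw). RI 4 and ICI 3 each stood alone in their block, so this fit compared only RI 1 with ICI 1 and RI 2 with ICI 2. It left the low library ICI 3 out of the comparison. In that fit Ccr7 was called lower (adjusted p = 0.0400), Mlana was not called (0.108), and the log2 fold changes of Ubash3a and Ctla4 were -0.11 and -0.49. Numbers 1 and 2 alone are shared between the groups, and their deviations correlated at 0.353 (RI 1 with ICI 1) and 0.0909 (RI 2 with ICI 2), and each of these 4 libraries correlated best, across the groups, with the one of its own number; RI 4 and ICI 3, with different numbers, correlated at 0.270. With only 2 shared numbers and 1 correlation under 0.1, the number was not taken as a pairing. Signs reversed for Lat (0.15), Fasl (0.15) and Prf1 (0.45) without ICI 1 and for Prf1 (0.07) without RI 2; the difference of log2 Gzmb per Cd3e (-0.08) was 0.86 without RI 2, 0.06 without ICI 1 and 0.48 without ICI 2, over a range of -0.89 to 0.86. Over the left-out libraries these 3 genes ranged from -1.49 to 0.15 (Lat), -2.24 to 0.15 (Fasl) and -3.49 to 0.45 (Prf1). The cause was not tested beyond the change in libraries. No other direction of a T cell gene turned in these fits. Low counts limit the precision of most of these genes: only 8 of the 32 had at least 10 counts in both RI 2 and RI 4, although RI 2 had the largest library total, 45624013.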

Other observations

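A few T cell genes outside the 32 had other orders of libraries; they were picked after their values were seen. Ubash3a, a phosphatase that damps T cell receptor signalling, had 76, 3 and 0 counts in RI 1, 2 and 4, against 39, 17 and 3 in ICI 1, 2 and 3. Per 100 CD3 chain counts it stood at 38.2 in RI 1 (95% exact binomial interval 28.9 to 50.0), against 5.44 (3.84 to 7.51) in ICI 1 and 5.65 (3.25 to 9.20) in ICI 2. The checkpoint receptor Ctla4 had 65, 0 and 2 counts in RI, against 24, 26 and 13 in ICI, or 32.7 per 100 CD3 counts in RI 1 (24.3 to 43.4), against 3.35 (2.13 to 5.02) in ICI 1 and 8.64 (5.55 to 12.9) in ICI 2. RI 1 was thus the highest of the 6 libraries for both, although ICI 1 held more CD3 counts. These intervals cover counting error only and set 1 library against others, not the treatments, and neither gene was called in edgeR with all 6 libraries (log2 fold change 0.80, adjusted p = 0.769 for Ubash3a and 0.57, adjusted p = 0.815 for Ctla4). Both directions turned without RI 1, to -3.51 for Ubash3a (adjusted p = 0.130) and to -3.88 for Ctla4 (adjusted p = 0.0480), so that Ctla4 was then called lower. In limma-voom, with all libraries, the log2 fold changes were -0.83 for Ubash3a and -2.04 for Ctla4, and neither was called.

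Ccr7, the chemokine receptor of naive and central memory T cells and of migrating dendritic cells, measured 0.248, 0.0225 and 0.233 CPM in RI, against 1.58, 0.755 and 0.753 CPM in ICI, on 7, 1 and 5 counts in RI, against 55, 30 and 36 in ICI. Every RI library lay below every ICI library, as for 19.4% of all genes tested and for none of the 32 genes. Its log2 fold change was -2.71 (SE 0.74, edgeR adjusted p = 0.0568). DESeq2 called it lower and limma-voom did not. In edgeR it was also called lower without RI 1 (adjusted p = 0.0449) and without the filter on low counts (0.00313), and its adjusted p was 0.0872 to 0.197 without any other library.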
